A study of Mus musculus with 6 samples.

Results

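The heterochromatin mark H3K9me3 was examined in and around 5 genes that regulate the oxidative programme of skeletal muscle fibres: Ppargc1a, Ppargc1b, Ppard, Esrrg and Prkaa2. The genes were chosen by name, and their data are the rows of the deposited table that carry 1 of these symbols. These were 166 regions of 202553, and the table named 16587 gene symbols in all. Ppargc1a had 76 regions, Ppargc1b 10, Ppard 3, Esrrg 71 and Prkaa2 6. The mark was profiled by CUT&Tag, in which an antibody guides a transposase to the mark, where it inserts sequencing adapters into the neighbouring DNA. The tissue was snap-frozen quadriceps femoris, with 3 libraries from Prr14-KO mice (replicates 4, 5 and 7) and 3 from Prr14-WT mice (replicates 3, 4 and 8). Prr14 encodes a protein that tethers heterochromatin to the nuclear lamina, and these mice were compared to ask how its loss bears on muscle fibres. The deleted part of Prr14, the strain, age and sex of the mice and any batch are not given in the sources used here. It is also not stated that each library came from a different mouse, so the p-values refer to these libraries and not to mice. The edgeR p-values and SE use a spread that is partly shared over all regions or sums fitted. They can therefore be smaller than the SD of a single gene's libraries would give. In whole muscle, fewer nuclei carrying the mark and less of the mark per nucleus cannot be told apart.

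Oxidative fibres are fatigue-resistant fibres rich in mitochondria, and endurance training and energy shortage shift muscle towards them. Ppargc1a and Ppargc1b encode the transcriptional coactivators PGC-1 alpha and PGC-1 beta, which do not bind DNA themselves and are recruited by nuclear receptors. Ppard (PPAR delta) and Esrrg (ERR gamma) encode such receptors and drive genes of fatty acid oxidation and respiration. Prkaa2 encodes the alpha-2 catalytic subunit of AMPK, the kinase that senses low energy, is the main form in skeletal muscle and phosphorylates PGC-1 alpha. H3K9me3 marks silent chromatin, chiefly repeats and stretches poor in genes, and is usually low at the start sites of active genes.

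The libraries held 4707466, 4340285 and 4324444 counts in Prr14-KO replicates 4, 5 and 7, and 4756133, 4646568 and 4636898 counts in Prr14-WT replicates 3, 4 and 8. The 166 regions took 0.0493%, 0.0559% and 0.0619% of these counts in the Prr14-KO libraries and 0.0662%, 0.0568% and 0.0588% in the Prr14-WT libraries. Pearson's r between pairs of libraries, on log2 values across regions, was 0.635 to 0.691. Prr14-KO replicates 4, 5 and 7 had a mean r of 0.646, 0.654 and 0.643 with their own genotype. With the Prr14-WT libraries it was higher, at 0.677, 0.662 and 0.6455. Prr14-WT replicates 3, 4 and 8 had 0.671, 0.673 and 0.665 with their own genotype and 0.659, 0.664 and 0.661 with the other. The 20 regions with the most counts took 7.46% to 8.19% of a library, and the mitochondrial share ran from 0.146% to 0.612% in Prr14-KO and from 0.174% to 0.366% in Prr14-WT. Values below are counts, or CPM, which scale counts to a library's total, with the SD over 3 libraries. The regions were small: their median width was 288.5 bp, against 318 bp over the table, and their median held 13.2 counts per library, against 15 over the table.

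The starts of the 5 genes, taken as the 5′ ends of the genes in the authors' table, lay outside the regions of the mark. They were from 481 bp (Prkaa2) to 68590 bp (Ppargc1a) away from the nearest. More distal RefSeq starts of Ppargc1a were not checked. Nor were the inner starts of Ppargc1a and Ppard, from which the authors' table measures some of its distances. The RefSeq promoter windows of Ppargc1a, Ppard, Prkaa2 and Esrrg, each running from 250 bases before a start site to 50 after it, were compared with the regions. Of the 7 windows, 4 of them at alternative starts of Esrrg, 0 overlapped a region, while 11.8% of 32851 such windows in the genome did. The distance to the nearest region was 68341 bp for Ppargc1a, 8294 bp for Ppard, 1103 bp for the most upstream Esrrg window and 223 bp for Prkaa2. The windows differed in base composition, from 48.7% GC and 5 CpG dinucleotides at Ppargc1a to 72.7% GC and 35 CpG at Prkaa2, where the median window had 52.7% GC and 7 CpG. The 3 windows below are shown because they stand for the start farthest from the mark (Ppargc1a), the gene with the highest level of the mark (Esrrg) and the start closest to a region (Prkaa2). They are RefSeq sequence of GRCm38.p6, read 5′ to 3′ on the gene's strand, from chr5:51567676-51567975 (minus strand), chr1:187608756-187609055 (plus strand) and chr4:105109849-105110148 (minus strand). Capitals mark TGACG, the core of the cAMP response element through which CREB is known to activate Ppargc1a, printed as CGTCA where the match is on the other strand.
Ppargc1a: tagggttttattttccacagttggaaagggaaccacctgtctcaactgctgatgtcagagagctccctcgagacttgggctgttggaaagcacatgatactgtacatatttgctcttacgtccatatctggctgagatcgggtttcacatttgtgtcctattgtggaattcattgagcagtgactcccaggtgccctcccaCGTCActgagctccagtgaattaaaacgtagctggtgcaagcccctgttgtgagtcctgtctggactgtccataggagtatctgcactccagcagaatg
Esrrg: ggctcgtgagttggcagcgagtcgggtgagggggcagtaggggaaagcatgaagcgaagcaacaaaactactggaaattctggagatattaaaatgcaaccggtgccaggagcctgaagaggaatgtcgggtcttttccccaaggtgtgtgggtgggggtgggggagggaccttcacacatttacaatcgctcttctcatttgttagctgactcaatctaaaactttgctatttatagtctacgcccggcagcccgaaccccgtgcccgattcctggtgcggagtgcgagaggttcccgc
Prkaa2: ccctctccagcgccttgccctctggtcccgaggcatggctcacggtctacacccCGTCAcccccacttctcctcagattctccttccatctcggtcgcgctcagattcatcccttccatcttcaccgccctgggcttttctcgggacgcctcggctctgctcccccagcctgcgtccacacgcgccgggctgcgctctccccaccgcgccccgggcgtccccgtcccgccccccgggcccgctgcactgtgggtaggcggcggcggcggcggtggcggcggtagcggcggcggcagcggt
TGACG was searched on both strands and occurred in 20.8% of all windows. It began 49 bases before the Ppargc1a start, 196 before that of Prkaa2 and 4 before that of Ppard, and was absent from the 4 Esrrg windows. The full element TGACGTCA (1.79% of all windows, and holding TGACG on both strands) and AAGGTCA, an element bound by ERR receptors (4.72% of all windows), were in 0 of the 7 windows. These matches describe letters in the windows and say nothing about binding. The inner start of Ppargc1a was not scanned, so whether a full element lies there is not known from these windows.

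Over the RefSeq spans of the genes, the level of H3K9me3 was above the median of protein-coding genes of 50 kb or more, and highest at Esrrg. Genes matched in length were not compared for this level. Counts of regions whose midpoint lies in a RefSeq gene span were summed and expressed as CPM per 100 kb of span, so that genes of different length can be set side by side. Esrrg had 34.6 CPM per 100 kb as the mean of the 6 libraries, Ppard 24.7, Ppargc1b 22.2, Prkaa2 16.9 and Ppargc1a 15.4. Among 4945 protein-coding genes of 50 kb or more, with a median level of 14.75 CPM per 100 kb, these were at percentiles 77.7, 65.3, 61.7, 54.1 and 51.1. Of those long genes, 13.1% held no region. The RefSeq span of Ppargc1a, 661.6 kb, is far longer than the gene of 113477 bp in the authors' annotation. That shorter gene held 4.70 CPM in Prr14-KO and 8.08 CPM in Prr14-WT, a level below the median of the long genes. Single libraries ran from 26.1 to 41.3 CPM per 100 kb for Esrrg, 17.3 to 29.7 for Ppard, 15.4 to 29.9 for Ppargc1b, 11.4 to 23.6 for Prkaa2 and 13.8 to 17.8 for Ppargc1a. Read within each library, Esrrg was above the other 4 genes in all 6 libraries, and Ppargc1a was below Ppard and Ppargc1b in all 6. The order of Ppard, Ppargc1b and Prkaa2, and that of Prkaa2 and Ppargc1a, changed between libraries.

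**Figure D1:**
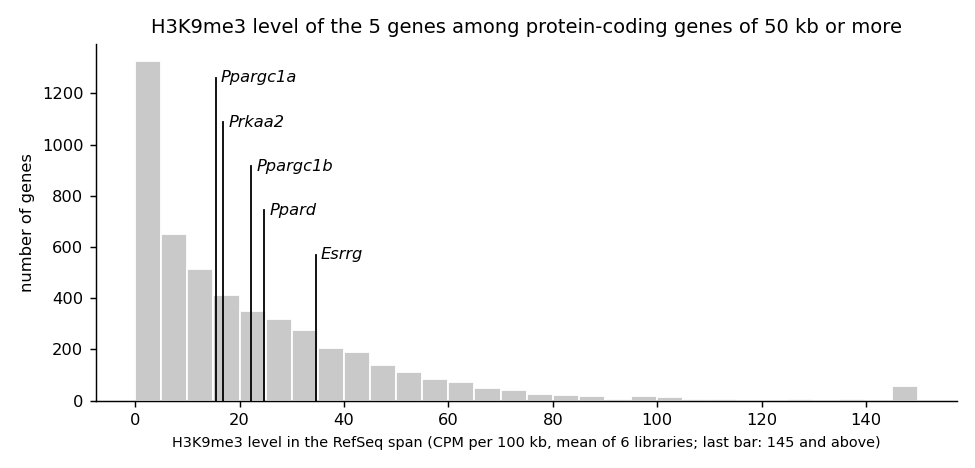
H3K9me3 level over RefSeq gene spans (x axis, CPM per 100 kb, mean of 6 libraries) for protein-coding genes of 50 kb or more (bars, number of genes on the y axis), with the 5 genes as vertical lines. The lines run from Ppargc1a at 15.4 to Esrrg at 34.6, and all lie at or right of the median of 14.75. The Ppargc1a line is for its RefSeq span of 661.6 kb, not for the shorter gene of the authors' annotation.

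The mark was laid out differently at each gene. All but 4 of the 76 Ppargc1a regions were annotated as intergenic, 57 of the 76 lay beyond the 3′ end of the gene and 15 before its start, reaching 757.91 kb downstream and 242.13 kb upstream of the start site. Adgra3, the next protein-coding gene on the downstream side, is 1395 kb away (log2 fold change 0.07, SE 0.28). Esrrg carried the mark across its body: 49 of its 71 regions were intronic, 1 exonic, 1 within 1 to 2 kb of a start site and 20 intergenic. Ppargc1b had 5 intergenic and 3 intronic regions, 1 within 1 kb and 1 within 1 to 2 kb of the start. Prkaa2 had 4 intronic regions, 1 within 1 kb of the start and 1 intergenic, and the 3 Ppard regions were intronic. Among all deposited regions, 68.1% were intergenic, 22.6% intronic, 3.80% within 1 kb of a start and 2.06% exonic. At the genes with few regions a single region dominated, holding 70.0% of the counts at Ppard, 50.4% at Prkaa2 and 32.98% at Ppargc1b, against 4.24% at Ppargc1a and 4.88% at Esrrg.

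**Figure D2:**
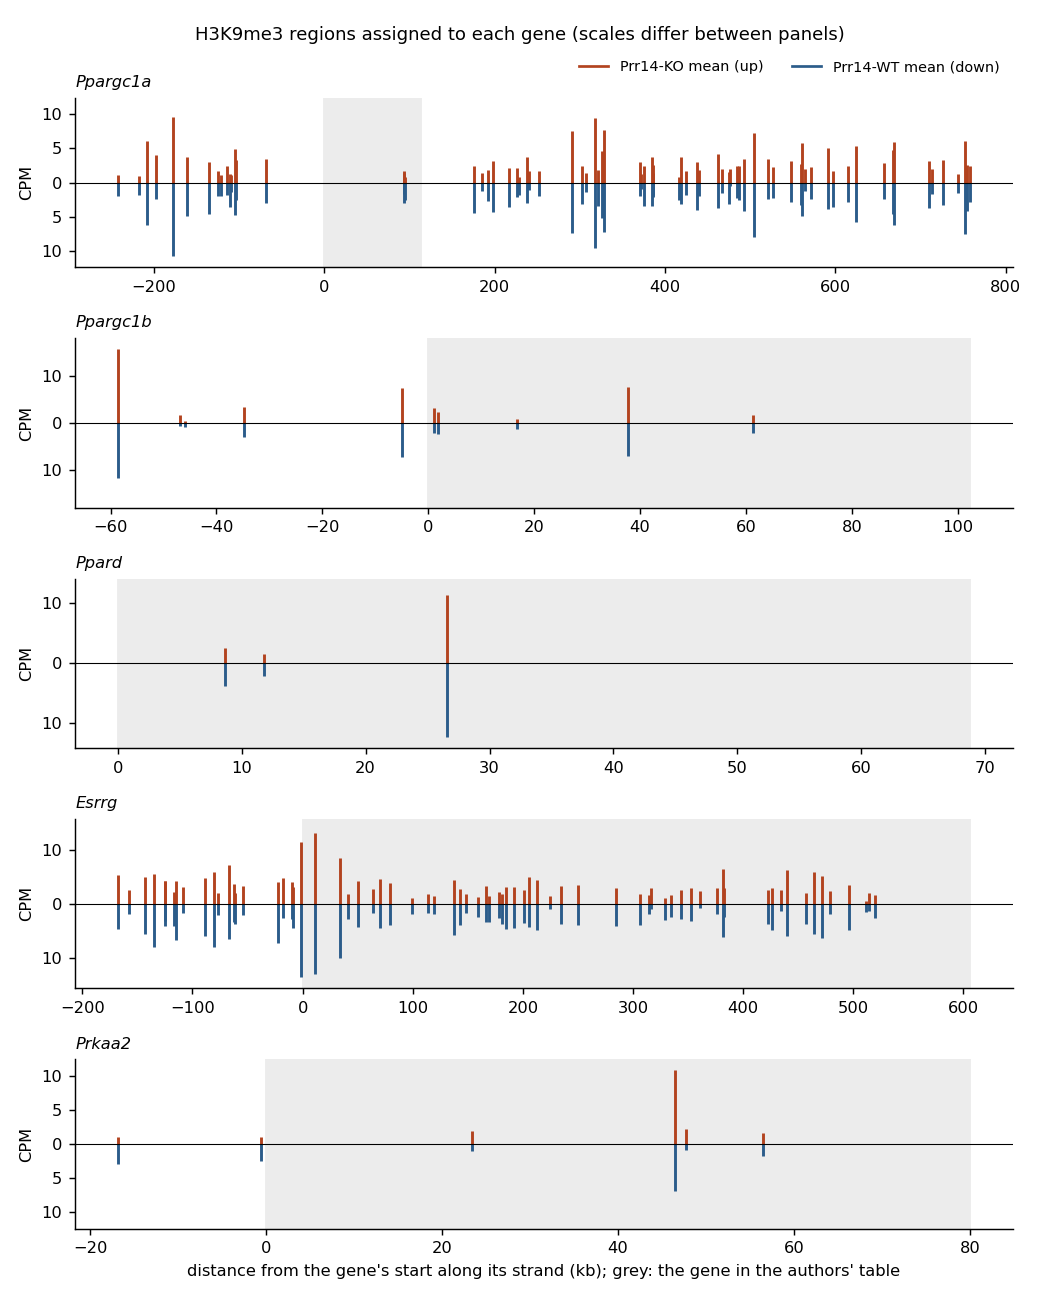
Each vertical line is a region assigned to the gene, placed by its distance in kb from the gene's start along its strand (x axis), with the Prr14-KO mean drawn upwards and the Prr14-WT mean downwards (y axis, CPM, n = 3 libraries each, scales differ). Grey marks the gene: Ppargc1a regions lie mostly outside the gene, which holds 4. Esrrg regions lie along the gene as far as 519.42 kb from its start, and on its upstream side.

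Summed per gene, H3K9me3 at none of the 5 genes differed between genotypes beyond the test's threshold. The share of gene sums called over the table at an adjusted p of 0.05 was 0.0393% (6 of 15265), and 0 of the 5 genes was among them, all with an edgeR Benjamini-Hochberg adjusted p of 1.00. For each of the 5, the Prr14-KO and Prr14-WT libraries overlapped, where 8.5% of all gene sums did not overlap. Ppargc1a, Ppard and Esrrg had fold changes below 0 and Ppargc1b and Prkaa2 above 0, and over all gene sums 49.7% were below 0.

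At Ppargc1a, the summed counts were 1018, 980 and 1057 in Prr14-KO replicates 4, 5 and 7, and 1269, 1089 and 1145 in Prr14-WT replicates 3, 4 and 8. After scaling, 1 Prr14-KO library (replicate 7) lay above the lowest Prr14-WT library (replicate 4). The means were 229 ± 11.2 CPM in Prr14-KO and 249 ± 14.3 CPM in Prr14-WT, a log2 fold change of -0.14 (SE 0.079, 95% interval -0.29 to 0.02, edgeR unadjusted p = 0.0875). It was -0.08 without Prr14-WT replicate 3 and 0.04 without regions under 500 bp. In the authors' annotation Ppargc1a spans chr5 51454250 to 51567726 on the minus strand (GRCm38), and its body held 4 small regions (3.53 per 100 kb), all labelled 3′ UTR, at 51472948 to 51474207. From there to the start site, 93.5 kb or 82.4% of the gene held no region, and the nearest region to the start lay 68590 bp upstream. Such gaps are not rare. Of 596 protein-coding genes with RefSeq spans of 100 to 125 kb, the median had a longest gap of 42.3% of its length and 20.1% had one at least as large as that of Ppargc1a. RefSeq draws Ppargc1a as far as 52115853, from more distal alternative starts, and that longer span held 36 regions, of which the authors gave 17 to the neighbouring gene Dhx15. Its sum was 98.7 ± 11.6 CPM in Prr14-KO and 105 ± 11.6 CPM in Prr14-WT, a log2 fold change of -0.12 (SE 0.12, edgeR unadjusted p = 0.321).

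The 4 regions labelled 3′ UTR gave the largest fold change among the Ppargc1a classes. Together they held 26, 17 and 20 counts in Prr14-KO and 49, 23 and 42 counts in Prr14-WT, and the groups overlapped on the scaled values. The means were 4.70 ± 0.848 CPM in Prr14-KO and 8.08 ± 2.74 CPM in Prr14-WT, a log2 fold change of -0.79 (SE 0.38, 95% interval -1.53 to -0.05, edgeR unadjusted p = 0.0367, adjusted p = 0.999). At this level, sums per gene and annotation class, 0.0443% of 29316 sums were called and 3.81% had an unadjusted p under 0.05, so an unadjusted p of this size is not rare. Singly, each held too few counts for the test. The region at 51472948 had 2, 2 and 7 counts in Prr14-KO and 19, 10 and 7 in Prr14-WT, and that at 51473992 had 7, 7 and 8 in Prr14-KO and 10, 3 and 28 in Prr14-WT. Between them, the region at 51473512 had 11, 3 and 5 counts in Prr14-KO and 7, 4 and 3 in Prr14-WT, and that at 51473845 had 6, 5 and 0 in Prr14-KO and 13, 6 and 4 in Prr14-WT. At each of the 4 the genotypes overlapped. The 72 intergenic regions had a log2 fold change of -0.12 (SE 0.087, edgeR unadjusted p = 0.175). Downstream of the gene the level was 177 ± 4.86 CPM in Prr14-KO and 188 ± 13.9 CPM in Prr14-WT (two-sided exact permutation p = 0.30), and upstream it was 47.5 ± 6.89 CPM in Prr14-KO and 53.3 ± 4.49 CPM in Prr14-WT (exact permutation p = 0.30), where 3 libraries against 3 cannot give a p under 0.10.

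Among single Ppargc1a regions, 47 had enough counts to be tested, with log2 fold changes between -1.42 and 0.72 (median -0.04), 28 below and 19 above 0. The region with the most counts, 176.85 kb upstream at 51744354 to 51744801, had 71, 28 and 29 counts in Prr14-KO and 35, 48 and 67 in Prr14-WT, a log2 fold change of -0.17 (SE 0.27). Prr14-KO replicate 4 was the highest library there and the other Prr14-KO libraries the lowest. The smallest p belonged to a region 110.58 kb upstream, at 51678178 to 51678431, with 2, 2 and 13 counts in Prr14-KO and 13, 22 and 14 in Prr14-WT (log2 fold change -1.42, SE 0.67, edgeR unadjusted p = 0.0334, adjusted p = 0.998). In the other direction it was the region at 51765138 to 51765647, with 12, 16 and 25 counts in Prr14-KO and 10, 12 and 12 in Prr14-WT (log2 fold change 0.72, SE 0.53, edgeR unadjusted p = 0.179).

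Ppargc1b lies on chromosome 18, from 61298136 to 61400431 on the minus strand, and carries the microRNA gene Mir378a, a known regulator of mitochondrial metabolism, near its start. Its sum was 189, 181 and 226 counts in Prr14-KO replicates 4, 5 and 7 and 198, 167 and 176 counts in Prr14-WT replicates 3, 4 and 8. Prr14-KO replicate 7 stood above the other 5 libraries, which lay close together. The means were 44.7 ± 5.99 CPM in Prr14-KO and 38.5 ± 2.57 CPM in Prr14-WT, a log2 fold change of 0.20 (SE 0.15, 95% interval -0.11 to 0.51, edgeR unadjusted p = 0.196). It was 0.09 without Prr14-KO replicate 7 and 0.02 with genic and promoter regions only. Its 5 intergenic regions, all upstream, together gave 28.9 ± 1.46 CPM in Prr14-KO and 23.4 ± 2.30 CPM in Prr14-WT, and every Prr14-KO library was above every Prr14-WT library. Sums of a gene and class without overlap made up 8.95% of all such sums, and this one had a log2 fold change of 0.29 (SE 0.19, 95% interval -0.09 to 0.67, edgeR unadjusted p = 0.131, adjusted p = 0.999). Most of it came from the region 58.64 kb upstream, at 61458645 to 61459494, with 65, 76 and 69 counts in Prr14-KO against 59, 63 and 43 in Prr14-WT (log2 fold change 0.43, SE 0.24, edgeR unadjusted p = 0.0738).

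Close to the Ppargc1b start the counts were small and scattered. The region annotated within 1 kb, at 61399246 to 61399619, held 2, 19 and 21 counts in Prr14-KO and 17, 6 and 7 in Prr14-WT, so that 1 library of each genotype went against the other 2. Its log2 fold change was 0.585 (SE 0.60, edgeR unadjusted p = 0.327). The region at 61398502 to 61398669, annotated 1 to 2 kb from the start, held 7, 6 and 18 counts in Prr14-KO and 10, 10 and 13 in Prr14-WT, too few to be tested. It is the nearest to Mir378a (61397835 to 61397900), 602 bp away. The 3 intronic regions gave 10.2 ± 2.03 CPM in Prr14-KO and 10.6 ± 1.43 CPM in Prr14-WT (log2 fold change -0.06, SE 0.29). Over the RefSeq span of 9 regions, 4 of which the authors gave to the neighbour Pde6a, the log2 fold change was 0.08 (SE 0.20), with 25.3 ± 7.97 CPM in Prr14-KO and 23.4 ± 4.41 CPM in Prr14-WT. It was -0.13 without Prr14-KO replicate 7. The neighbours Pde6a and Arhgef37 had log2 fold changes of 0.09 (SE 0.16) and 0.53 (SE 0.31) over their own spans.

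**Figure D3:**
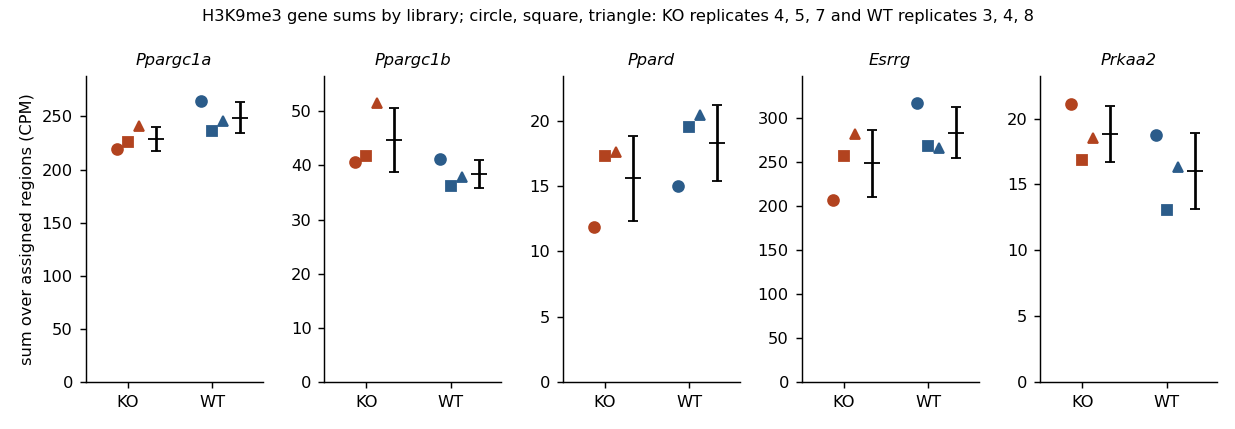
Counts summed over all regions of each gene, as CPM (y axis, from 0, scales differ), for each Prr14-KO and Prr14-WT library (points), with the mean and SD of 3 libraries beside them. In all 5 panels the genotypes overlap. Prr14-KO replicate 4 (circle) is the lowest point for Ppargc1a, at 219 CPM, for Ppard, at 11.9 CPM, and for Esrrg, at 207 CPM. These are the genes with fold changes below 0.

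Ppard, which encodes the receptor that drives fatty acid oxidation in trained muscle, held the fewest regions. Its sum was 55, 75 and 77 counts in Prr14-KO replicates 4, 5 and 7 and 72, 90 and 95 counts in Prr14-WT replicates 3, 4 and 8. In each genotype 1 library was low, replicate 4 in Prr14-KO and replicate 3 in Prr14-WT. The means were 15.6 ± 3.23 CPM in Prr14-KO and 18.3 ± 2.90 CPM in Prr14-WT, a log2 fold change of -0.25 (SE 0.23, 95% interval -0.71 to 0.21, edgeR unadjusted p = 0.281). The interval spans both a loss and a gain, and without Prr14-KO replicate 4 the value was -0.10. All 3 regions were intronic, on chromosome 17 between 28241097 and 28259955. The broadest, 1377 bp wide and 26.57 kb from the start, held 42, 58 and 52 counts in Prr14-KO and 55, 45 and 73 in Prr14-WT (log2 fold change -0.11, SE 0.25). The region 8.64 kb from the start held 7, 10 and 17 counts in Prr14-KO and 9, 24 and 21 in Prr14-WT (log2 fold change -0.58, SE 0.53, edgeR unadjusted p = 0.273). The remaining region, at 28244414, held 6, 7 and 8 counts in Prr14-KO and 8, 21 and 1 in Prr14-WT and was too low to be tested. Of the neighbours, Def6 held 1 region and Fance 0.

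Esrrg had the most counts of the 5 genes and the smallest p among their gene sums, and still did not pass. It spans chr1 187608791 to 188214885 on the plus strand. The sum was 959, 1115 and 1234 counts in Prr14-KO replicates 4, 5 and 7 and 1519, 1234 and 1235 counts in Prr14-WT replicates 3, 4 and 8. Scaled, these were 207, 257 and 282 CPM in Prr14-KO and 317, 268 and 266 CPM in Prr14-WT. Prr14-KO replicate 4 was the lowest and Prr14-WT replicate 3 the highest, while Prr14-KO replicate 7 was above both other Prr14-WT libraries. The means were 249 ± 38.3 CPM in Prr14-KO and 283 ± 28.9 CPM in Prr14-WT, a log2 fold change of -0.21 (SE 0.087, 95% interval -0.38 to -0.03, edgeR unadjusted p = 0.0206, adjusted p = 1.00). Among all gene sums 3.58% had an unadjusted p under 0.05. The value was -0.11 without Prr14-KO replicate 4 and -0.30 without Prr14-KO replicate 7. Its unadjusted p was 0.0548 with DESeq2, 0.065 with edgeR on library totals and 0.0197 with limma-voom.

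Intronic, intergenic and near-start sums of Esrrg all had fold changes below 0, none past the threshold. The 49 intronic regions together held 582, 652 and 819 counts in Prr14-KO and 971, 758 and 798 in Prr14-WT, with Prr14-KO replicate 7 above 2 Prr14-WT libraries after scaling. Their means were 154 ± 30.9 CPM in Prr14-KO and 180 ± 20.2 CPM in Prr14-WT (log2 fold change -0.24, SE 0.094, 95% interval -0.42 to -0.05, edgeR unadjusted p = 0.0114, adjusted p = 0.999). This value was -0.39 without Prr14-KO replicate 7 and -0.13 without Prr14-WT replicate 3. Without regions under 500 bp it was also -0.13 (edgeR unadjusted p = 0.28). With all regions, the unadjusted p of the intronic sum was 0.0642 with DESeq2 and 0.0116 with limma-voom. The 50 regions inside the gene gave 157 ± 31.6 CPM in Prr14-KO and 181 ± 20.3 CPM in Prr14-WT (two-sided exact permutation p = 0.40). The 20 intergenic regions gave 80.4 ± 9.02 CPM in Prr14-KO and 88.9 ± 11.1 CPM in Prr14-WT (log2 fold change -0.16, SE 0.12, edgeR unadjusted p = 0.159). Over the RefSeq span, with 61 regions, the log2 fold change was -0.22 (SE 0.10, edgeR unadjusted p = 0.0284, adjusted p = 1.00). It was -0.36 without Prr14-KO replicate 7 and -0.12 without Prr14-WT replicate 3. None of the neighbouring genes named here that were tested passed. Over its own span, Gpatch2 had a log2 fold change of 0.32 (SE 0.18).

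Of the single Esrrg regions 57 were tested, with a median log2 fold change of -0.19, 36 below and 21 above 0. The strongest region, in an intron 10.93 kb from the start at 187619328 to 187620122, was level between genotypes, with 46, 52 and 75 counts in Prr14-KO, 69, 53 and 61 in Prr14-WT and a log2 fold change of 0.00 (SE 0.24, 95% interval -0.48 to 0.48). The region nearest the start, 1.44 kb upstream at 187607045 to 187607653, held 46, 56 and 49 counts in Prr14-KO and 61, 61 and 69 in Prr14-WT, a log2 fold change of -0.26 (SE 0.25, edgeR unadjusted p = 0.295). At the region with the smallest p, 22.4 kb upstream at 187586159 to 187586619, all 3 Prr14-KO libraries (15, 22 and 17 counts) were below the 3 Prr14-WT libraries (37, 33 and 31 counts), as at 4.93% of tested regions in the table, with a log2 fold change of -0.82 (SE 0.38, edgeR unadjusted p = 0.0311, adjusted p = 0.998). In the other direction the smallest p was at 187925207 to 187925383, with 14, 6 and 18 counts in Prr14-KO and 12, 3 and 0 in Prr14-WT (log2 fold change 1.40, SE 0.79, edgeR unadjusted p = 0.0768). The exonic region at 188043390 to 188043537 held 2, 22 and 9 counts in Prr14-KO and 7, 6 and 6 in Prr14-WT and was too low to be tested.

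**Figure D4:**
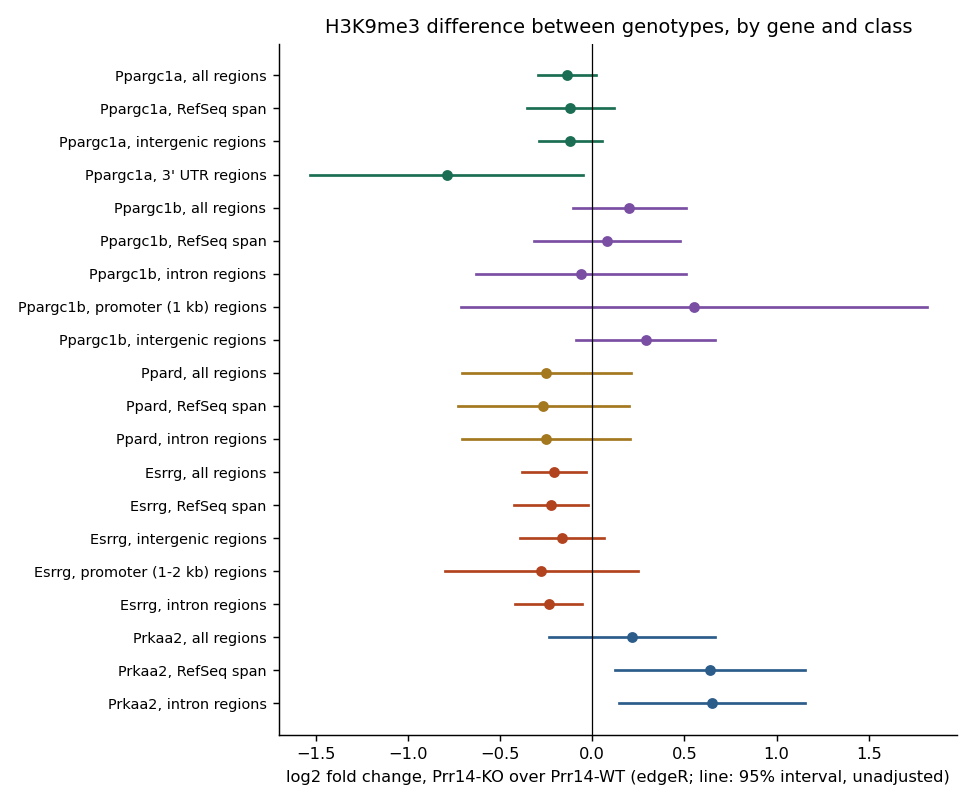
Log2 fold change of H3K9me3, Prr14-KO over Prr14-WT (x axis), for each gene's sum, RefSeq span and tested annotation class (rows), with points for the edgeR estimate and lines for its unadjusted 95% interval. Intervals of the Ppargc1a 3′ UTR sum, 3 Esrrg sums and 2 Prkaa2 sums leave out 0, and none of these passed adjustment.

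At Prkaa2, no sum of regions passed the threshold, and most counts lay in the introns. The gene lies on chr4 from 105029874 to 105109890 on the minus strand. Over all 6 regions the sum was 98, 73 and 81 counts in Prr14-KO replicates 4, 5 and 7 and 90, 60 and 76 counts in Prr14-WT replicates 3, 4 and 8, which overlapped. The means were 18.8 ± 2.16 CPM in Prr14-KO and 16.0 ± 2.88 CPM in Prr14-WT, a log2 fold change of 0.22 (SE 0.23, 95% interval -0.23 to 0.66, edgeR unadjusted p = 0.342). Leaving out single libraries moved it between 0.09 (without Prr14-WT replicate 4) and 0.36 (without Prr14-WT replicate 3), with 0.10 without Prr14-KO replicate 4. It was 0.40 with genic and promoter regions only and 0.64 without regions under 500 bp, where its unadjusted edgeR p was 0.0431. That last value rests on a single region, the intronic one of 1337 bp described below. The 4 intronic regions, which are also the 4 regions of the RefSeq span, held 88, 65 and 70 counts in Prr14-KO and 51, 42 and 55 in Prr14-WT. Scaled, they were 18.96, 15 and 16.0 CPM in Prr14-KO and 10.6, 9.12 and 11.8 CPM in Prr14-WT, so all Prr14-KO libraries were above all Prr14-WT libraries. The log2 fold change over the span was 0.64 (SE 0.26, 95% interval 0.12 to 1.16, edgeR unadjusted p = 0.0150, adjusted p = 1.00). At that level 0.0291% of 17200 span sums were called, 4.18% had an unadjusted p under 0.05 and 9.23% had no overlap.

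Most of the intronic sum came from 1 region 46.44 kb from the start, at 105062782 to 105064118 and 1337 bp wide, with 49, 42 and 53 counts in Prr14-KO and 30, 34 and 33 in Prr14-WT. All Prr14-KO libraries were above all Prr14-WT libraries, at 10.8 ± 1.22 CPM in Prr14-KO and 6.91 ± 0.585 CPM in Prr14-WT (log2 fold change 0.64, SE 0.29, 95% interval 0.07 to 1.22, edgeR unadjusted p = 0.0280, adjusted p = 0.998). The other 3 intronic regions were uneven, with a single library often far above the rest. The region at 105053313 held 10, 2 and 10 counts in Prr14-KO and 15, 3 and 6 in Prr14-WT. That at 105062070 held 7, 18 and 5 counts in Prr14-KO and 6, 0 and 6 in Prr14-WT, and that at 105086428 held 22, 3 and 2 in Prr14-KO and 0, 5 and 10 in Prr14-WT.

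Upstream of Prkaa2 the counts were low. The region annotated within 1 kb of the start, at 105110371 to 105110529, lay 481 bp before it and 223 bp before the promoter window printed above. It held 1, 6 and 7 counts in Prr14-KO and 17, 9 and 10 in Prr14-WT, so every Prr14-KO library was below every Prr14-WT library. The intergenic region 16.87 kb upstream held 9, 2 and 4 counts in Prr14-KO and 22, 9 and 11 in Prr14-WT, also without overlap after scaling, though the highest Prr14-KO value, 1.94 CPM, was close to the lowest Prr14-WT value, 1.953 CPM. Both were too low for the test, and among the 48764 regions of the table too low for it 9.83% had no overlap, 4.88% lower and 4.96% higher in Prr14-KO. The neighbours Fyb2 and Plpp3 had log2 fold changes of -0.02 (SE 0.13) and 0.24 (SE 0.45) over their own spans.

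**Figure D5:**
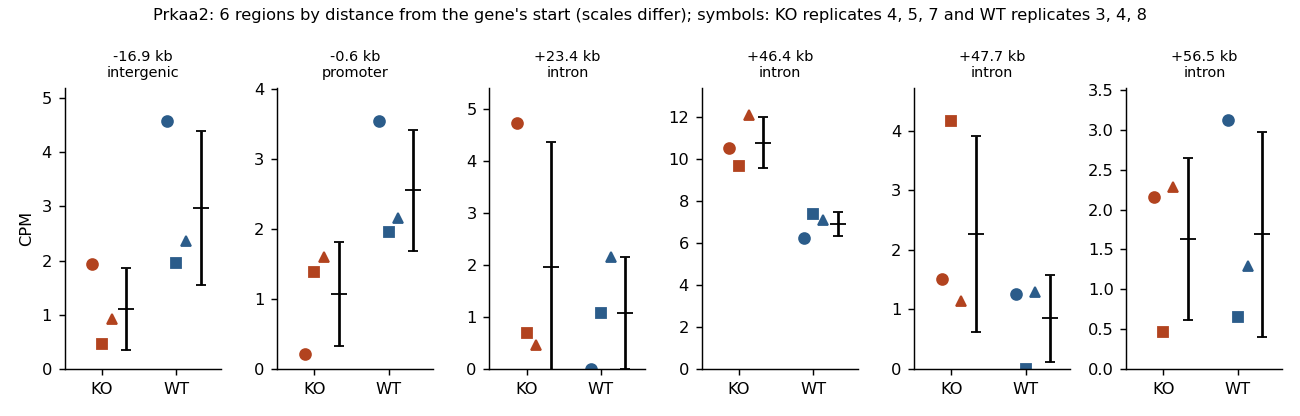
The 6 Prkaa2 regions in order of distance from the gene's start, with the CPM of each Prr14-KO and Prr14-WT library (points; y axes from 0, scales differ) and the mean and SD of 3 libraries. At the 2 upstream regions the Prr14-KO points are below the Prr14-WT points, and at the intronic region at 46.4 kb they are above them.

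Over single regions of the 5 genes together, 112 of the 166 had enough counts to be tested and 0 passed (smallest edgeR adjusted p 0.998), where 0.013% of 153789 regions in the table were called. An unadjusted p under 0.05 was reached by 3 of the 112, 2 lower and 1 higher in Prr14-KO. Of all tested regions 3.84% reached it, 1.81% lower and 2.02% higher. The genotypes did not overlap at 13 of the 112 regions, 9 lower and 4 higher in Prr14-KO. Over the table the share was 9.61%, with 4.93% lower and 4.68% higher. These were 7 Esrrg, 4 Ppargc1a, 1 Ppargc1b and 1 Prkaa2 regions. Of the regions too low for the test 4 did not overlap, 2 at Ppargc1a and the 2 upstream of Prkaa2, against the 9.83% of untested regions in the table. Log2 fold changes were below 0 at 66 and above 0 at 46 of the 112, with a median of -0.08, while 49.9% of all tested regions were below 0 and their median was 0.00. In the authors' deposited table, 121 of the 166 regions carry an adjusted p, the smallest being 0.9998, and 9 have an unadjusted p under 0.05, 8 lower and 1 higher in Prr14-KO. In the authors' deposited table as a whole, 3.91% of regions have such a p, 2.3% lower and 1.61% higher.

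On the scale of 1 Mb bins, where the spread between libraries was smallest (median SE 0.067 on the log2 scale), 0.076% of 2630 bins were called and none of them held a start site of the 5 genes. The bin of the Ppargc1a start had 196 ± 7.98 CPM in Prr14-KO and 209 ± 11.5 CPM in Prr14-WT (log2 fold change -0.10, SE 0.083). That of Ppargc1b had 254 ± 34.9 CPM in Prr14-KO and 240 ± 4.302 CPM in Prr14-WT (0.07, SE 0.077). That of Ppard had 258 ± 16.3 CPM in Prr14-KO and 245 ± 14.4 CPM in Prr14-WT (0.07, SE 0.072). That of Esrrg had 393 ± 47.6 CPM in Prr14-KO and 405.5 ± 31.3 CPM in Prr14-WT (-0.05, SE 0.072). Around Prkaa2 the bin had 165 ± 7.70 CPM in Prr14-KO and 153 ± 2.21 CPM in Prr14-WT (0.10, SE 0.098), without overlap, as in 5.59% of bins. Each had an edgeR adjusted p of 1.00, and over these 5 bins the lowest bound of a 95% interval was -0.26 and the highest 0.30 on the log2 scale.

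No other gene of the pathway lists passed. Of the AMPK subunits and their regulators 10 of 16 listed genes had regions, 8 were tested, 0 passed, and 6 were above and 2 below 0 (median log2 fold change 0.14). Prkag2, which encodes a regulatory subunit, had 257, 282 and 278 counts in Prr14-KO and 258, 264 and 270 in Prr14-WT (log2 fold change 0.11, SE 0.13). Of nuclear receptors and the PGC-1 family, 14 of 20 were tested, 0 passed, 8 were above and 6 below 0 (median 0.06), and Esrrg was the only 1 with an unadjusted p under 0.05. Of their partners, 15 of 21 were tested, 0 passed, and 11 were above and 4 below 0 (median 0.12). Tfeb, which encodes a regulator of lysosomal and mitochondrial genes, had the smallest p of these lists, with 66, 88 and 98 counts in Prr14-KO and 60, 45 and 59 in Prr14-WT and no overlap after scaling (log2 fold change 0.68, SE 0.25, edgeR unadjusted p = 0.00662, adjusted p = 1.00). Next was Ncoa1, a nuclear receptor coactivator gene, with 61, 44 and 81 counts in Prr14-KO and 53, 37 and 53 in Prr14-WT (log2 fold change 0.44, SE 0.28, edgeR unadjusted p = 0.120). Of the downstream oxidative genes 18 of 34 were tested, 0 passed, and 14 were above and 4 below 0 (median 0.14), while 49.7% of all gene sums were below 0. An unadjusted p under 0.05 was reached by 3 of the 18, against 3.58% of all gene sums: Mfn2 of mitochondrial fusion (log2 fold change 1.31, SE 0.64, edgeR unadjusted p = 0.0424), the respiratory subunit gene Ndufa9 (0.50, SE 0.25, edgeR unadjusted p = 0.0475) and the oxygen-binding myoglobin gene Mb. Mfn2 rested on 1 region, with 20, 13 and 25 counts in Prr14-KO and 4, 15 and 5 in Prr14-WT, and its genotypes overlapped. Mb had 134, 119 and 124 counts in Prr14-KO and 104, 98 and 98 in Prr14-WT (0.39, SE 0.19, edgeR unadjusted p = 0.0433, adjusted p = 1.00). The median over all gene sums was 0.00. Of the 34 downstream oxidative genes, 21 held no region in their RefSeq span, so any sum of such a gene came from regions outside it.

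Regions assigned to marker genes of muscle fibres and of 6 other cell types gave 0 calls. H3K9me3 at a marker gene does not measure that cell type's share, so these lists do not check the tissue label. Summed levels ran from 404 to 443 CPM in Prr14-KO and 404 to 462 CPM in Prr14-WT for endothelial markers, 286 to 335 CPM in Prr14-KO and 315 to 345 CPM in Prr14-WT for fibro-adipogenic markers, and 202 to 226 CPM in Prr14-KO and 192 to 218 CPM in Prr14-WT for macrophage and leukocyte markers. They were 252 to 257 CPM in Prr14-KO and 245 to 257 CPM in Prr14-WT for satellite cell markers, 112 to 138 CPM in Prr14-KO and 125 to 140 CPM in Prr14-WT for adipocyte markers, and 13.8 to 23.5 CPM in Prr14-KO and 16.7 to 21.3 CPM in Prr14-WT for Schwann cell markers. Lep alone gave a mean of 103 CPM in Prr14-KO and 110.5 CPM in Prr14-WT to the adipocyte sum. Emcn gave 121 CPM in each genotype to the endothelial sum. Neither gene held a region in its RefSeq span. Muscle fibre markers had 133 to 179 CPM in Prr14-KO and 126 to 164 CPM in Prr14-WT, and of the 9 tested 4 were above and 5 below 0. An unadjusted p under 0.05 was reached by Mb, given above, by the fibro-adipogenic marker Dcn (log2 fold change -0.23, SE 0.10, edgeR unadjusted p = 0.0323) and by Myh7. Myh7, the slow myosin heavy chain of oxidative fibres, had 17, 16 and 17 counts in Prr14-KO and 35, 38 and 29 in Prr14-WT, without overlap, as in 8.5% of gene sums (log2 fold change -0.96, SE 0.44, edgeR unadjusted p = 0.0314, adjusted p = 1.00). Whether shifts in cell makeup play a part in the values at the 5 genes was not tested.

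By the pattern of log2 CPM over the 6 libraries, the gene sums most like that of Ppargc1a were Cacna1e (Pearson's r = 0.995), Ankfn1 (0.983) and Hao1 (0.979), among 6387 genes with at least 100 counts per library. For Ppargc1b they were Celf2 (r = 0.988), Epha3 (0.981) and Zim1 (0.973), and for Esrrg Meis2 (r = 0.991), Gpatch2l (0.989) and Plppr5 (0.989). Of the 6387 genes, 38 exceeded an r of 0.9 with Ppargc1a, 45 with Ppargc1b and 48 with Esrrg. The points share libraries, depth and scaling, and the genes named have the highest of 6387 values over only 6 libraries. How many unrelated genes would exceed 0.9 was not computed, so these values do not show a real likeness.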

How the data were processed

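H3K9me3 CUT&Tag was analysed in 3 Prr14-KO and 3 Prr14-WT libraries, grouped by the genotype labels. The build is GRCm38, and the tools listed, with no settings, are BWA and Trimmomatic, MACS2, bedtools, deepTools and DESeq2 1.6.3, per the submitters' processing notes. The sources used here do not say how regions were called or whether libraries were pooled for it, and no spike-in is named, so a uniform change of the mark is scaled away. Raw counts per region and library were deposited by the authors and were used in all tests. The normalised signal deposited by the authors equals the count divided by 1 factor per library and was not tested. The authors' deposited log2 fold changes and p-values were only quoted. The deposited score of each region was not used in a test. Its distance to a start site served only to choose regions within 100 kb for an alternative run of the gene sums. Gene symbols, annotation classes and positions are those of the deposited table.

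Counts of single regions, of gene symbols, of symbols by annotation class, of RefSeq spans (GRCm38.p6, midpoint inside) and of 1 Mb bins were each fitted over the whole table with edgeR 4.0.16 (R 4.3.3): filterByExpr with a minimum count of 10 and total of 15, TMM scaling, robust quasi-likelihood test, Benjamini-Hochberg adjustment over all features, threshold 0.05. Features that failed the filter are called untested. CPM use region-level TMM factors at every level. For sums by position, genotypes were compared with exact permutation over all 20 arrangements, two-sided. The fits were tested on simulated data. The 5 genes and the lists were chosen with earlier results of these data known. Named regions are those within 3 kb of a start or in an exon or UTR, the one with the most counts and the one with the smallest p in each direction; the remaining Prkaa2 and Ppard regions were named after their values were seen. Of each pathway list, the 2 genes with the smallest p were named, and Ndufa9 and the marker genes Myh7 and Dcn were added after their values were seen. Genes with a like pattern are the 3 with the highest r, among genes with at least 100 counts and after a prior count of 2. Alternatives were RLE factors, library totals, DESeq2 1.42.0, limma-voom (limma 3.58.1), no robust weighting, other filters (none, or a mean of 20), regions without X and Y or of 500 bp or more, other gene windows, a threshold of 0.10, and leaving out each library. A neighbouring gene is not reported here.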

Additional observations from a re-analysis of the deposited data

How the results depend on the processing

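No region of the 5 genes passed under any alternative run. Their gene sums, class sums, span sums and bins gave adjusted p-values from 0.477 (Esrrg introns without Prr14-KO replicate 7) to 1.00. No paired analysis was possible because the genotypes share only replicate number 4. Counts of calls over the whole table moved without X and Y to 11 regions, 3 gene sums, 6 class sums, 3 span sums and 1 bin, and without regions under 500 bp to 12 regions, 8 class sums and 1 bin. DESeq2 called 4 bins, bins of 100 kb gave 14 calls and spans widened by 10 kb gave 11. Leaving out each library gave 6 to 18 gene sums, 5 to 13 span sums and 2 to 6 bins, the highest without Prr14-KO replicate 4.

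Fold changes near 0 turned sign. Without regions under 500 bp the log2 value was 0.0444 for the Ppargc1a sum, 0.0457 for its intergenic sum, 0.0073 for its span, 0.11 for its bin, 0.11 for the Ppargc1b introns, -0.0398 for the Ppard bin, 0.0014 for the Esrrg bin and -0.0011 for the strongest Esrrg region, which was -0.0367 with limma-voom and -0.0041 with no filter. With 100 kb bins the Ppard start had -0.041 and the Prkaa2 start -0.30. Leaving out each library gave -0.25 to 0.17 for that Esrrg region, -0.70 to 0.10 for the strongest Ppargc1a region, -0.25 to 0.11 for the strongest Ppard region, -0.18 to 0.0915 for the Ppargc1b introns, -0.13 to 0.27 for the Ppargc1b span, -0.0201 to 0.18 for its bin and -0.14 to 0.0406 for the Esrrg bin. The causes were not tested. The Prkaa2 span stayed between 0.42 and 0.73 and the Esrrg sum between -0.30 and -0.11 under all alternatives run. A region's median SE of 0.46 limits what could be detected.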
